A study of Mus musculus with 12 samples.

Results

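The Bcl2 family apoptosis regulators were examined as 10 genes of the 20718 genes in a mouse testis expression table. They were taken by symbol, as Bcl2, Bcl2l1, Bcl2l2 and Mcl1 (pro-survival members), Bax, Bak1 and Bok (pore-forming effectors), and Bad, Bbc3 and Bcl2l11 (BH3-only members). All 10 were found, and all 10 passed the filter on low counts with which 16296 genes of the table were tested.

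The family decides at the outer mitochondrial membrane whether a cell releases cytochrome c and starts the caspase cascade. Pro-survival members hold the effectors Bax and Bak1 in check, and BH3-only members are the stress-responsive ligands that occupy the pro-survival members or engage the effectors directly. In the testis, germ cells are removed by apoptosis as a normal part of spermatogenesis, and male mice that lack Bax or Bcl2l2 are infertile.

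RNA came from testis of mice whose strain the labels give as "IRC mouse", in 4 groups of 3 libraries (12 in all). Per the study's methods, ICR males of 4 weeks of age received lentivirus in the testis and were then raised to 9 weeks of age. They were next mated with untreated females for 4 days, and samples were taken after 4 more days. In F0_5251KD the virus (backbone lentivirus-3) encoded short hairpin RNAs to lower lncRNA5251 (a long non-coding RNA), and F0_3NC was the negative control in that backbone. In F0_5251OV the virus (backbone lentivirus-5) carried lncRNA5251, and F0_5NC was that backbone alone. All groups had therefore been injected with virus and none was untreated, and no restriction of the virus to a cell type is named in the sources used here. Whether the 3 libraries of each group stem from different mice is not labelled, so the tests rest on the variation among libraries, which may be technical. Whole testis was sequenced, so fewer cells of a type and less RNA per cell cannot be told apart.

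The hairpin sequences decide which transcripts can be cut, so they are shown in the sense orientation, 5′ to 3′, with the 7 bases that pair with bases 2 to 8 of the guide strand in capitals.
sh3NC: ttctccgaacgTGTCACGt
shlncRNA5251 KD #1: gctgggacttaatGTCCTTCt
shlncRNA5251 KD #2: gcatgggcaattcAAACAAAt
shlncRNA5251 KD #3: gcttattatgcatCGTAAACc
No hairpin matched a Bcl2 family transcript over its whole length. Each knockdown hairpin matched only Purb, which encodes a nucleic acid-binding protein, among the annotated transcripts, and the control hairpin matched none. The matches lay on the minus strand in the 3′ UTR of Purb, at chr11:6468416-6468436 for hairpin 1, chr11:6467969-6467989 for hairpin 2 and chr11:6468248-6468268 for hairpin 3 (GRCm38). The capital letters of hairpin 1 were found in the longest transcripts of Bcl2, Bak1 and Bok (23.9% of 20027 genes searched held them), those of hairpin 2 in Bcl2, Mcl1 and Bcl2l11 (40.2% of genes), and those of hairpin 3 in Mcl1 and Bcl2l11 (2.42% of genes). The letters of the control hairpin were in none of the 10 members and in 7.03% of genes. A match of this length is a description of the sequence only.

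lncRNA5251 has no row of its own in the table, and Purb was the only listed gene that the hairpins matched. Purb lay at 8.61 to 9.72 RPKM (read counts scaled by transcript length and library total) in F0_5251KD and at 8.67 to 11.14 in F0_3NC. The log2 fold change of Purb was -0.11 (edgeR, adjusted p = 0.897). Its mean was 8.87 RPKM in F0_5251OV and 8.91 in F0_5NC. Without a row for lncRNA5251, neither its knockdown nor its overexpression could be checked in these libraries. Library totals were 15431383 to 16355720 estimated counts. F0_3NC replicate 2 and F0_5251OV replicate 1 stood apart, with scores of -26.4 and -36.1 on the second principal component against -8.33 to 20.2 in the other libraries. In these libraries the median log2 deviation of transcripts under 1000 bases was -0.115 and -0.043, and that of transcripts over 4000 bases was 0.0945 and 0.032. F0_5251OV replicates 2 and 3 deviated by length in the opposite sense, with 0.0721 and 0.0866 for the short and -0.042 and -0.025 for the long transcripts. The 15 immediate early genes, which answer stimuli within minutes, summed to 229 to 251 CPM (each count relative to its own library's scaled total) in F0_3NC, 397 to 468 in F0_5251KD, 111 to 121 in F0_5NC and 89.8 to 127 in F0_5251OV. Testis identity was evident from germ cell markers, since the 6 elongated spermatid genes summed to 15075 to 19606 CPM. Epididymis markers (4 of 5 listed genes were in the table) summed to 0.511 to 120.5 CPM over the libraries.

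In levels per transcript length, 3 members made up most of the summed RPKM of the 10. Bcl2l1, which encodes Bcl-xL, the member whose protein the study also examined in testis, was highest of these 10. Its mean was 43.96 RPKM (SD 2.19, n = 12 libraries). It was followed by Bad at 33.8 (SD 4.62) and Mcl1 at 28.1 (SD 3.08). Bax (7.98), Bcl2l2 (7.34) and Bak1 (6.98) formed a middle tier, Bok (2.86), Bcl2l11 (2.2) and Bbc3 (1.03) a low one, and Bcl2 itself was last at 0.175 RPKM. The ranges over the 12 libraries did not overlap between Bcl2l1 and Bad, between Mcl1 and Bax, between Bak1 and Bok, or between Bbc3 and Bcl2. The other neighbours in this order had overlapping ranges, with Bad above Mcl1 in 10 libraries, Bax above Bcl2l2 in 8 and Bcl2l2 above Bak1 in 7 of 12. Among all genes of the table, the mean level of Bcl2l1 was at percentile 87.8 and that of Bcl2 at percentile 19.1. The order and the shares below cover these 10 genes only. Of 8 other Bcl2 homologues listed, Bcl2l14 had a mean of 202 RPKM, above every one of the 10. Bcl2l12 was at 22.5, and the others at 6.61 or less.

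**Figure D1:**
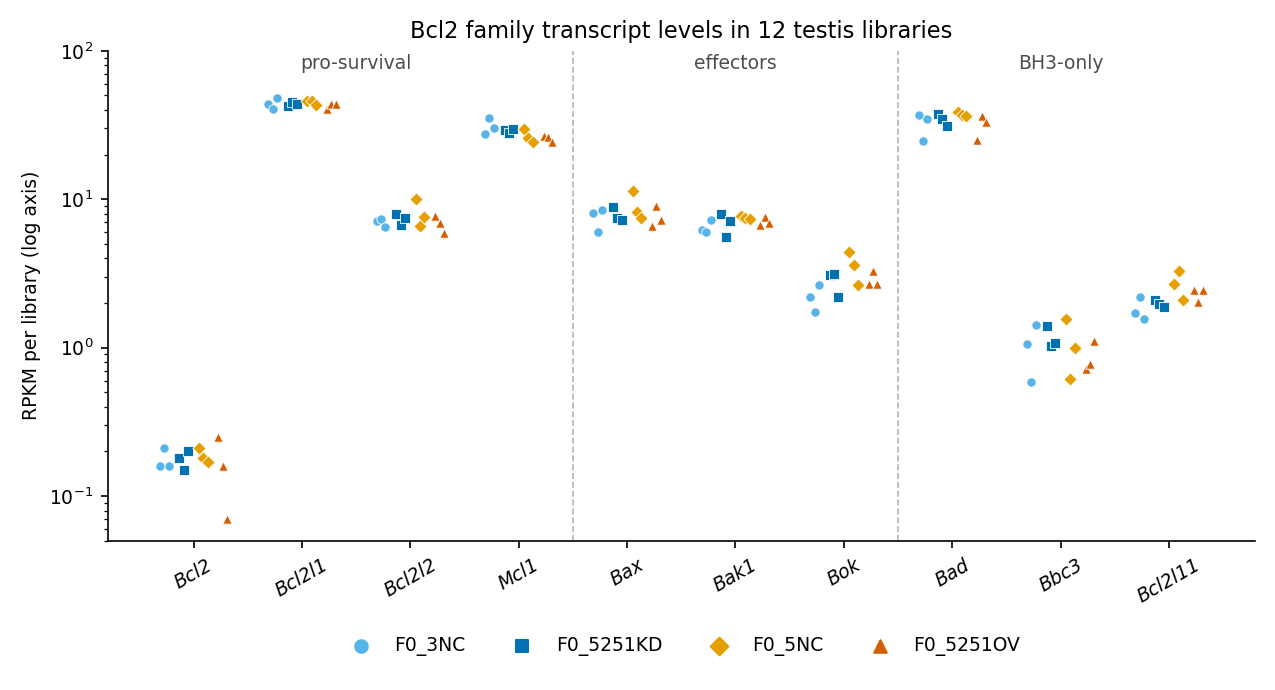
RPKM of the 10 members (log axis) in each of 12 testis libraries, 3 per group, with pro-survival members, effectors and BH3-only members separated by dashed lines. Bcl2l1, Bad and Mcl1 sit between 24.3 and 47.9 RPKM in every library, and Bcl2 sits between 0.07 and 0.25.

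Pro-survival members held 58.3% to 66.9% of the summed RPKM of the 10 members in F0_3NC, 56.9% to 61.6% in F0_5251KD, 56.4% to 57.1% in F0_5NC and 56.6% to 62.9% in F0_5251OV. The ranges of each treatment and its control overlapped, and the control groups did not overlap with each other. The highest share, 66.9%, was that of F0_3NC replicate 2. Because Bcl2 was so low, the often quoted ratio of Bax to Bcl2 ran from 26.3 to 103.6 between libraries. The ratio of Bax (74 to 138 counts a library) to Bcl2l1 (1706 to 2006 counts) ran from 0.148 to 0.247. These shares and ratios are descriptions with no test.

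**Figure D2:**
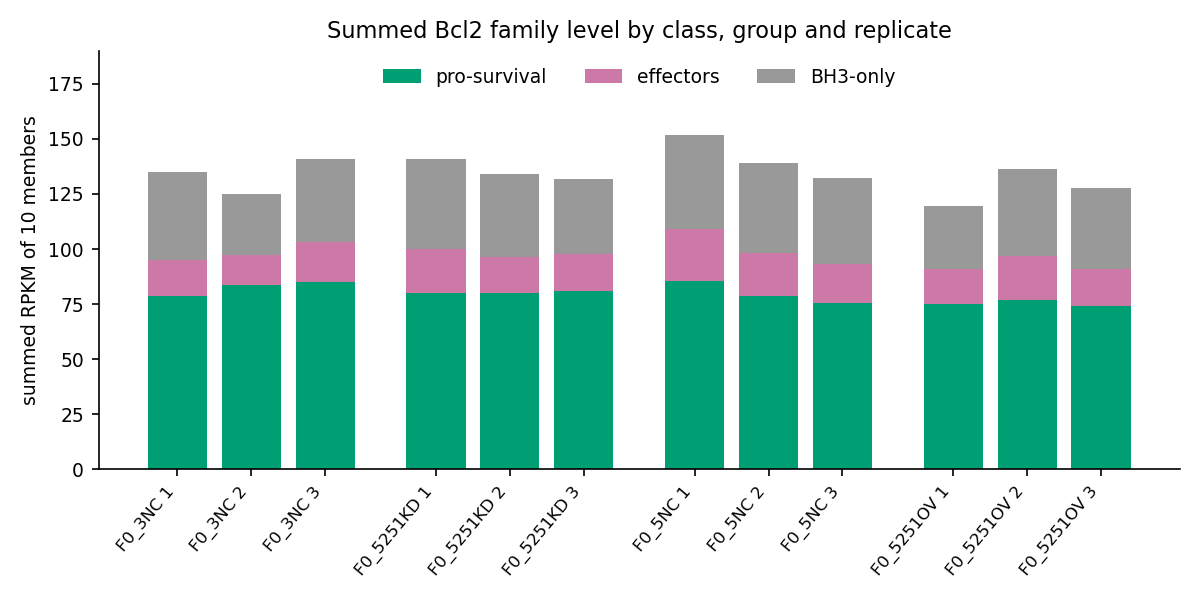
Summed RPKM of the 10 members in each library (group and replicate number on the horizontal axis), stacked by class as pro-survival, effectors and BH3-only. The total lies between 119 and 152 RPKM, and the pro-survival part between 74.2 and 85.6 RPKM.

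The knockdown and overexpression comparisons ask whether testis gene expression differed with the viruses meant to change lncRNA5251. No Bcl2 family member passed the test in either comparison. In F0_5251KD vs F0_3NC, 4 of 16296 genes were called by edgeR at a threshold of 0.05 on adjusted values (0.0245%), and 0 of the 10 members. At an unadjusted p under 0.05 the share was 4.74% of all genes, with 0 members, and values did not overlap between groups for 11.8% of genes, with 0 members. Log2 fold changes were above 0 for 8 members and below 0 for 2, with a median of 0.06 beside 0.00 for all genes. Without F0_3NC replicate 2 these counts were 4 above and 6 below, with a median of -0.01. In F0_5251OV vs F0_5NC, edgeR called 0 genes (0%), and DESeq2 called 30 genes and 0 members. The unadjusted p was under 0.05 for 8.77% of genes and values did not overlap for 13.9%, in both cases with 0 members. Here 1 member lay above 0 and 9 lay below, with a median of -0.18 beside 0.00 for all genes. With 1 library left out, 7 to 10 members lay below 0. The median was then -0.22 to -0.08, nearest to 0 without F0_5NC replicate 1. That library had a Sertoli marker sum of 1556 CPM, against 890 to 1133 in the other libraries of these groups. Somatic cell markers had values of the same sign in this comparison, with 8 of 8 Leydig, 9 of 10 Sertoli and 5 of 5 peritubular smooth muscle genes below 0 and 0 called. The peritubular genes summed to 61.7 to 73.2 CPM in F0_5251OV and to 83.6 to 100.3 in F0_5NC, and their part in the values of the family was not tested. By edgeR the difference between both effects (knockdown minus overexpression, each against its control) called 0% of genes, had an unadjusted p under 0.05 for 11.3% of genes and for 0 members, and had a median of 0.24 over the members.

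**Figure D3:**
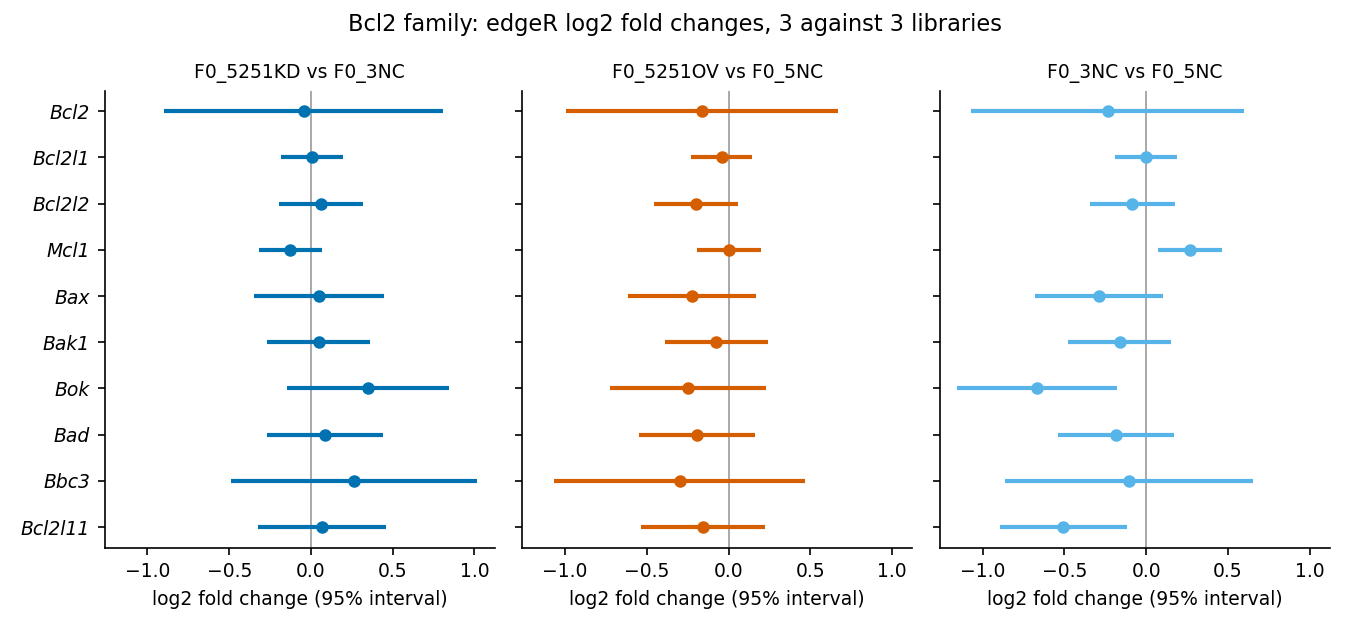
Log2 fold change of each member (points) with its 95% interval (lines) from edgeR in F0_5251KD vs F0_3NC, F0_5251OV vs F0_5NC and F0_3NC vs F0_5NC, with 3 libraries a group. All intervals of both treatment comparisons cross 0, and those of Mcl1, Bok and Bcl2l11 do not cross 0 between the controls, where the adjusted p was 0.316 to 0.342.

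Bcl2l1 (gene ID 12048, minus strand, chr2:152758732-152833803), which blocks Bax and Bak1, was the steadiest member. It lay at 43.96, 40.49 and 47.93 RPKM in F0_3NC, at 42.60, 45.41 and 43.60 in F0_5251KD, at 45.88, 46.06 and 43.41 in F0_5NC, and at 40.45, 43.76 and 43.93 in F0_5251OV. All groups overlapped, and the lowest values were those of F0_3NC replicate 2 and F0_5251OV replicate 1. The fold was 1.004 in F0_5251KD vs F0_3NC (95% interval 0.881 to 1.14) and 0.971 in F0_5251OV vs F0_5NC (0.852 to 1.11). These intervals, from 1706 to 2006 counts a library, were the narrowest of the 10 members. It spread by a coefficient of variation of 4.98% over the libraries, the smallest of the 10. For the protein, the paper reports an increase of Bcl-xL by western blot in knockdown testes against their control. The values here are RNA levels, and protein was not measured in these libraries.

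Mcl1 (gene ID 17210, plus strand, chr3:95656944-95663179), which encodes a short-lived pro-survival protein, lay at 27.35, 35.46 and 30.21 RPKM in F0_3NC and at 29.42, 27.75 and 29.78 in F0_5251KD. The values were 29.52, 25.94 and 24.43 RPKM in F0_5NC and 26.65, 26.13 and 24.29 in F0_5251OV. F0_3NC replicate 2 was the highest of all libraries, and treatment and control overlapped in both comparisons. By edgeR its log2 fold change in the knockdown comparison was -0.13 (SE 0.09, adjusted p = 0.897). In the overexpression comparison it was 0.00 (SE 0.091, edgeR adjusted p = 0.996). Without F0_3NC replicate 2 the knockdown value was -0.02.

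The 250 bases before the annotated start of Mcl1 are shown because Mcl1 had the smallest unadjusted p of the members over the comparisons, between the controls (0.0106, beside 0.0109 for Bok) (RefSeq, GRCm38.p6, plus strand, chr3:95658471-95658720), with motif matches in capitals.
Mcl1: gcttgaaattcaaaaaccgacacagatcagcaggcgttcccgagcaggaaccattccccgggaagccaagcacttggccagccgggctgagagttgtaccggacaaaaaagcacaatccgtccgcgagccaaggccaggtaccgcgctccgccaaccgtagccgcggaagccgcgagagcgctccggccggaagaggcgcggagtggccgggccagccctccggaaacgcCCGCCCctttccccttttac
The only match was 1 GC box (GGGCGG, here on the opposite strand). It was held by 32.7% of 32851 promoters of this length and by 11 of the 16 member promoters. Counted by gene, 8 of the 10 members held it before at least 1 start. Both strands were searched for the TATA box (TATAAA), the CCAAT box (CCAAT), the GC box, the E box (CACGTG), the cAMP response element (TGACGTCA), the AP-1 site (TGANTCA) and the CArG box. Of the 16 member promoters, 0 held a TATA box (12.4% of all promoters), 0 an AP-1 site (6.75%), 0 a cAMP response element (1.55%) and 0 a CArG box (1.47%).

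The remaining pro-survival members also overlapped between treatment and control. Bcl2l2, which encodes Bcl-w, lay between 5.91 and 10.01 RPKM, with its highest value in F0_5NC replicate 1 and its lowest in F0_5251OV replicate 3. Its log2 fold change was 0.06 in F0_5251KD vs F0_3NC and -0.20 (SE 0.12, edgeR adjusted p = 0.63) in F0_5251OV vs F0_5NC. Bcl2 had only 8 to 25 counts a library. At this depth its fold in F0_5251KD vs F0_3NC was 0.969 with a 95% interval of 0.536 to 1.75, so folds within that interval were not excluded. Bcl2 shares 558 exonic bases with an antisense RNA, whose reads cannot be told apart without strand. Bcl2l2 shares 594 exonic bases with Gm20521 on its own strand, so reads from these bases are uncertain with or without strand.

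No effector passed the test, and Bok varied most over the libraries, with a coefficient of variation of 25.0% against 17.1% for Bax and 10.4% for Bak1. Bax, which opens the mitochondrial membrane when activated, lay between 5.98 and 11.31 RPKM, from 74 to 138 counts. The highest Bax value was that of F0_5NC replicate 1 and the lowest that of F0_3NC replicate 2. Bax had a log2 fold change of 0.05 in F0_5251KD vs F0_3NC and of -0.22 (SE 0.182, edgeR adjusted p = 0.719) in F0_5251OV vs F0_5NC. Bax shares 192 exonic bases with Gm45808 on its own strand, so reads from these bases are uncertain with or without strand. Bak1, its partner effector that resides on mitochondria, lay between 5.6 and 7.95 RPKM and had log2 fold changes of 0.05 and -0.07. Bak1 shares 614 exonic bases with Ggnbp1, a germ cell gene on the opposite strand at a mean of 461 RPKM, so part of its reads may belong to that gene. Ggnbp1 had log2 fold changes of 0.10 and -0.10 in the same comparisons.

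Bok (gene ID 51800, plus strand, chr1:93685575-93695770), an effector that is little bound by the pro-survival members, lay at 2.19, 1.73 and 2.64 RPKM in F0_3NC and at 3.08, 3.15 and 2.19 in F0_5251KD. The values were 4.42, 3.61 and 2.64 RPKM in F0_5NC and 2.70, 3.29 and 2.70 in F0_5251OV. Treatment and control overlapped in both comparisons, and the count was 40 to 98 a library. Its log2 fold changes were the largest of the members in F0_5251KD vs F0_3NC, at 0.35 (SE 0.229, edgeR adjusted p = 0.897, and 0.19 without F0_3NC replicate 2, below Bcl2 at 0.30 and Bcl2l11 at 0.21), and among the larger in F0_5251OV vs F0_5NC, at -0.25 (SE 0.221, edgeR adjusted p = 0.744). The difference between both effects was 0.60 (95% interval -0.09 to 1.28, edgeR adjusted p = 0.47). The 250 bases before the Bok start (GRCm38.p6, plus strand, chr1:93685325-93685574) are shown to set beside those of Mcl1, since their log2 fold changes between the controls had opposite signs.
Bok: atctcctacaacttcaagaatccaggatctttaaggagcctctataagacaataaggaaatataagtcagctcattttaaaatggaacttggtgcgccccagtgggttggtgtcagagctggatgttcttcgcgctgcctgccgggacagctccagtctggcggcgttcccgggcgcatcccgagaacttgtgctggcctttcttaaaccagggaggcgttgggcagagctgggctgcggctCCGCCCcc
It too held 1 GC box and no other motif searched. Its GC content was 55.2% against 64.4% for Mcl1, beside a median of 52.4% over all promoters.

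Bad (gene ID 12015, plus strand, chr19:6941861-6951905), which binds Bcl-xL when survival signalling is lost, was the BH3-only member with the highest level. It lay at 37.05, 24.80 and 34.65 RPKM in F0_3NC, at 37.30, 34.62 and 31.06 in F0_5251KD, at 38.54, 37.12 and 36.23 in F0_5NC, and at 25.15, 36.48 and 33.18 in F0_5251OV. The 2 libraries that stood apart, F0_3NC replicate 2 and F0_5251OV replicate 1, had the lowest values, and the other 10 lay between 31.06 and 38.54. In CPM they were at 21.1 and 21.4 against 27.3 to 33.2. The Bad transcript has an implied length of 868 bases. With an offset for transcript length in each library, the Bad log2 fold changes were 0.08 in the knockdown and -0.21 in the overexpression comparison, close to those without it. The log2 fold change was 0.08 (SE 0.165, edgeR adjusted p = 0.938) in F0_5251KD vs F0_3NC, and -0.09 without F0_3NC replicate 2. In F0_5251OV vs F0_5NC it was -0.19 (SE 0.165, edgeR adjusted p = 0.732), and -0.03 without F0_5251OV replicate 1. Bad shares 524 exonic bases with Gpr137 on the opposite strand (mean 58.9 RPKM), so part of its reads may belong to that gene. This limit also holds for the rank of Bad and for the shares of summed RPKM. Gpr137 had log2 fold changes of 0.20 and -0.09.

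**Figure D4:**
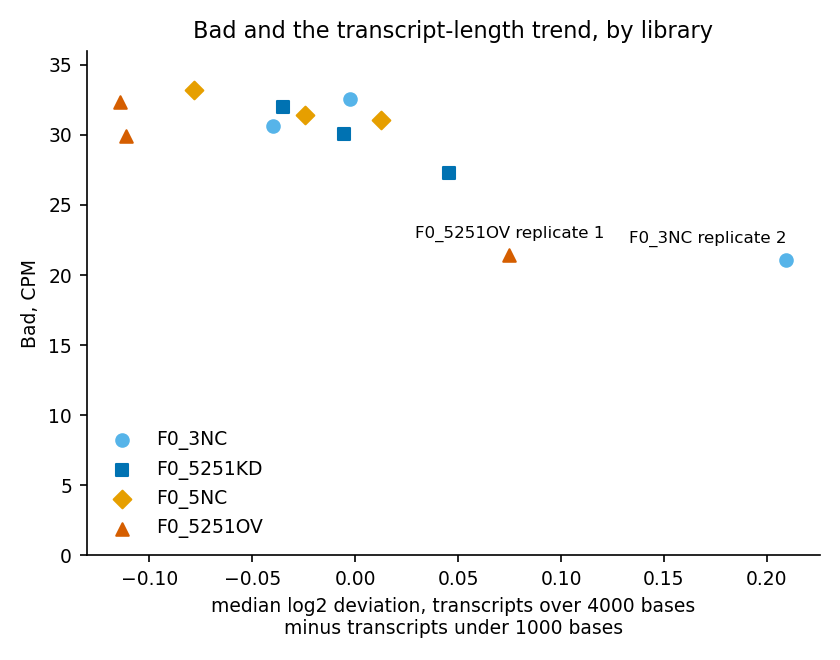
Bad (CPM, vertical axis) in each of 12 libraries against the median log2 deviation of transcripts over 4000 bases minus that of transcripts under 1000 bases. F0_3NC replicate 2 and F0_5251OV replicate 1 are farthest to the right and lowest, at 21.1 and 21.4 CPM.

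Bbc3 (Puma) and Bcl2l11 (Bim) are the potent BH3-only members, induced by p53 and by loss of survival signals. Bbc3 lay between 0.59 and 1.56 RPKM from 15 to 41 counts, and its log2 fold changes were 0.26 (SE 0.35) and -0.30 (SE 0.357). The value for Bbc3 was -0.04 in the knockdown comparison without F0_3NC replicate 2, and -0.02 in the overexpression comparison without F0_5NC replicate 1. The 95% intervals of Bbc3 reach from 0.712 to 2.02 and from 0.477 to 1.39 as folds. Bcl2l11 lay at 1.70, 2.18 and 1.56 RPKM in F0_3NC, at 2.11, 1.96 and 1.87 in F0_5251KD, at 2.69, 3.30 and 2.08 in F0_5NC, and at 2.46, 2.04 and 2.45 in F0_5251OV. F0_5NC replicate 2 was highest, and treatment and control overlapped in both comparisons. The log2 fold changes of Bcl2l11 were 0.07 and -0.16 with edgeR adjusted p-values of 0.958 and 0.798.

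The comparison of the controls F0_3NC and F0_5NC, which lacks lncRNA5251 treatment on both sides, showed the largest differences of the family, though none passed the test. edgeR called 54 of 16296 genes (0.331%) and 0 members. The unadjusted p was under 0.05 for 11.9% of genes and for 3 members, and values did not overlap for 17% of genes and for 1 member. Mcl1 lay at 89.9, 117 and 100.5 CPM in F0_3NC and at 89.4, 86.3 and 79.4 in F0_5NC, and was the only member whose CPM did not overlap, while its RPKM did. Its log2 fold change was 0.27 (SE 0.09, 95% interval 0.07 to 0.46, edgeR adjusted p = 0.316).

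Bok lay at 3.16, 2.43 and 3.83 CPM in F0_3NC and at 5.87, 5.29 and 3.77 in F0_5NC. The log2 fold change of Bok was -0.67 (SE 0.226, edgeR adjusted p = 0.316). Bcl2l11 was at 7.93, 10.2 and 7.53 CPM against 11.6, 15.6 and 9.21, with a log2 fold change of -0.51 (SE 0.179, edgeR adjusted p = 0.342). Without F0_3NC replicate 2 the values were 0.17 for Mcl1 (unadjusted p = 0.0587), -0.51 for Bok (unadjusted p = 0.0516) and -0.65 for Bcl2l11 (unadjusted p = 0.0049). Immediate early genes also differed between these controls, with 9 of 15 called higher in F0_3NC. Epididymis markers summed to 0.902 to 7.80 CPM in F0_3NC and 13.7 to 120.5 in F0_5NC, with 1 of 3 tested called lower, and 9 of 10 Sertoli markers had values below 0 with 0 called. The part of these genes in the values of the family was not tested. Besides the backbone, the controls differ in the control hairpin, which F0_3NC carried and F0_5NC did not. Backbone, hairpin and any handling batch that came with them cannot be told apart.

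**Figure D5:**
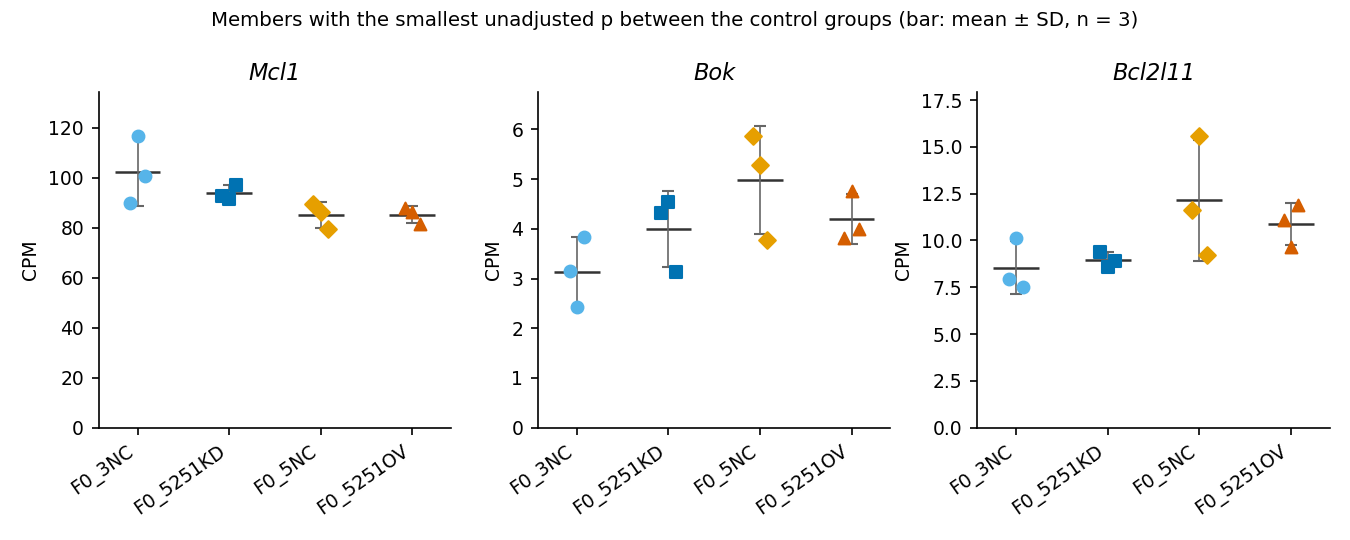
CPM of Mcl1, Bok and Bcl2l11 in the 4 groups, with points for libraries, a horizontal bar for the mean and an error bar for the SD (n = 3). Mcl1 lies at 89.9 to 117 CPM in F0_3NC and 79.4 to 89.4 in F0_5NC, and the groups overlap for Bok and Bcl2l11.

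The genes whose log2 CPM over the 12 libraries was most like a member were sought among 9705 genes of at least 10 CPM. For Bcl2l1 these included Nphp4 and Psmc5 with Pearson correlations of 0.951 and 0.950. For Mcl1 they were Kctd12, Star and Srgn with 0.897, 0.883 and 0.880. With group means removed, the correlations with Mcl1 were 0.750, 0.761 and 0.737, so part of this likeness was difference between groups. Those of Nphp4 and Psmc5 with Bcl2l1 were then 0.966 and 0.952. Within the family, Bax and Bok were most alike (0.838, n = 12) and Bcl2 and Bcl2l1 least (-0.685, n = 12). These are descriptions over libraries that share depth and the deviation of the libraries named above, and they have no p.

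The wider apoptosis machinery was taken as 8 lists with 61 genes, of which 54 were tested. In the treatment comparisons edgeR called 0 of 54 genes in F0_5251KD vs F0_3NC and 0 in F0_5251OV vs F0_5NC. Between the controls 1 gene was called, Trib1, and in the difference between both effects 0 were. The unadjusted p was under 0.05 for 3, 5, 7 and 7 of the 54 genes in this order. Over all genes tested the shares were 4.74%, 8.77%, 11.9% and 11.3%. The medians over the 54 genes were -0.02, -0.08, 0.02 and 0.12 on the log2 scale, beside 0.00 for all genes in each. Below, a list is said to be led by the gene with its smallest unadjusted p.

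Upstream of the family, the p53 pathway (10 of 11 genes tested) was led by Trp53, the tumour suppressor that induces Bbc3, in the knockdown comparison. Trp53 was at a mean of 14.6 CPM against 11.3, a log2 difference of 0.37 (edgeR adjusted p = 0.897), and the value between the controls was -0.28 (adjusted p = 0.379). Its difference between both effects was 0.55 (adjusted p = 0.394). Cdkn1a, the p53 target that halts the cell cycle, had the smallest p of this list in F0_5251OV vs F0_5NC, with -0.35 (adjusted p = 0.552).

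Further BH3-only genes (6 of 7 tested) were led by Pmaip1 (Noxa, which binds Mcl1) in F0_5251KD vs F0_3NC, with a log2 fold change of -0.52 (edgeR adjusted p = 0.897). Bmf, a BH3-only protein tied to the cytoskeleton, had the smallest p in the other comparisons, with -0.55 (adjusted p = 0.552) in F0_5251OV vs F0_5NC and -0.65 (adjusted p = 0.296) between the controls. Of the other Bcl2 homologues (4 of 8 tested), Bcl2l15 was at -0.29 in F0_5251KD vs F0_3NC, and Bcl2l13 was at 0.18 in F0_5251OV vs F0_5NC and 0.11 between the controls. None of these passed the test.

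Downstream of the family, the genes for release from mitochondria (10 of 10 tested) had mean levels from 0.768 to 305 RPKM. Vdac2, a channel of the outer membrane that holds Bak1, was at a mean of 305 RPKM, and Cyct, the testis form of cytochrome c, at 120 beside 18.9 for the somatic form Cycs. Apaf1, which cytochrome c activates, was the lowest at 0.768 RPKM. Endog led this list by p in F0_5251KD vs F0_3NC (log2 fold change 0.72), Vdac2 in F0_5251OV vs F0_5NC (0.15) and Cyct between the controls (0.14).

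The 6 caspases were all tested, and Casp6 had a mean of 5.29 RPKM. Casp9, the caspase of the apoptosome, led this list between the controls with a log2 fold change of -0.30 (edgeR adjusted p = 0.432). Between the controls all 6 caspases had log2 fold changes below 0, from -0.32 to -0.02, with 0 called. The inhibitors of apoptosis (5 of 5 tested) were led by Xiap at -0.23 in F0_5251KD vs F0_3NC, by Birc3 at -0.40 in F0_5251OV vs F0_5NC and by Birc2 at 0.15 between the controls, as log2 fold changes. Xiap and Birc2 depended on 1 library, with 0.00 for Xiap and 0.02 for Birc2 without F0_3NC replicate 2. Birc3 was at -0.18 without F0_5NC replicate 1 and kept its sign in every alternative.

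The death receptor pathway (9 of 10 tested) was led by Fas at 0.56, Tnfrsf1a at -0.40 and Tradd at -0.81, as log2 fold changes in the same order of comparisons and with 0 genes called. Leaving out 1 library brought Fas as low as 0.23 and Tnfrsf1a as near to 0 as -0.16. The list on Mcl1 turnover (4 of 4 tested) was written with earlier results of these data known. In it Trib1, a pseudokinase that brings substrates to the COP1 ubiquitin ligase, was called between the controls. Its place in the list does not show that Trib1 acts on Mcl1. Any part of Trib1 in the level of Mcl1 was not tested. Trib1 lay at 13.7, 14.9 and 12.5 CPM in F0_3NC and at 4.31, 4.69 and 3.84 in F0_5NC. The log2 fold change of Trib1 was 1.68 (SE 0.162, edgeR adjusted p = 0.00021). In F0_5251KD vs F0_3NC Trib1 was at 0.52 (adjusted p = 0.867), with values of 18.0, 16.4 and 24.6 CPM in F0_5251KD. Immediate early genes summed to 229 to 251 CPM in F0_3NC, 397 to 468 in F0_5251KD and 111 to 121 in F0_5NC. Their part in the Trib1 values was not tested. The ubiquitin ligase Huwe1, which marks Mcl1 for degradation, had the smallest p of this list in F0_5251OV vs F0_5NC, at -0.10. For the difference between both effects the other lists were led by Bmf (0.62), Tnfrsf1a (0.46), Casp9 (0.40), Birc3 (0.38), Bcl2l13 (-0.27) and Cyct (-0.33), with adjusted p-values from 0.42 to 0.564 by edgeR.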

How the data were processed

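RNA-seq of 12 mouse testis libraries in 4 groups was taken from 1 table deposited by the authors, which holds an estimated count and an RPKM value per gene and library. Per the study's methods, reads were aligned to reference genes and RPKM is scaled by transcript length and library total (the planned design called these values FPKM, and the tests are as planned). The labels name mm10. No strand-specific step is stated. Of the estimated counts deposited by the authors, 12.0% were not whole (tolerance 1e-06), and they were rounded. The table also held 18 per-sample columns of no sample of the series, which were not used, and the authors' group means, also not used.

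Differences were tested with edgeR 4.0.16 (TMM, filterByExpr, two-sided quasi-likelihood F test, 1 fit of all 12 libraries, 8 residual degrees of freedom), with Benjamini-Hochberg adjustment over 16296 genes and a threshold of 0.05. Standard errors were taken as log2 fold change over the root of F. The scripts were tested on simulated data. Totals were 15431383 to 16355720 counts, and intervals cover the spread between libraries.

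The members and gene lists were chosen with earlier results of these data known. The genes named are the 10 members, any other apoptosis gene called, the gene with the smallest p per list and comparison, and the 3 genes most like Bcl2l1 and like the member with the smallest p. Some genes that this rule names are not reported here. Hrk, Bcl2a1a, Bcl2a1b, Bcl2a1d, Bcl2l10, Tnf and Trp73 were below the filter and not tested. Alternatives were DESeq2 1.42.0, limma 3.58.1 on log2(RPKM + 1) and log2(RPKM + 0.1), upper-quartile scaling, other filters, only the groups compared, a replicate block, leaving out each library and the summed-count model of the study. Positions, promoters and transcripts are from RefSeq (GRCm38.p6) and GENCODE. All 10 members were matched there by symbol.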

Additional observations from a re-analysis of the deposited data

How the results depend on the processing

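Under every alternative run, edgeR, DESeq2 and limma called 0 of the 10 Bcl2 family members. The count of other apoptosis genes called stayed at 1 between the controls and 0 elsewhere. The summed-count model also called 0 members, but it required a log2 ratio of at least 1 in size beside an adjusted p of at most 0.001. No member reached that ratio, so its 0 adds no support. Between the controls its adjusted p was 1.1e-12 for Mcl1, 8.3e-08 for Bcl2l11 and 1.1e-05 for Bok. The count over all genes was less steady. DESeq2 called 20 genes in F0_5251KD vs F0_3NC, 30 in F0_5251OV vs F0_5NC, 138 in F0_3NC vs F0_5NC and 35 for the difference between the effects. The summed-count model, which ignores how libraries of a group vary, called 143, 191 and 307 in these comparisons in the same order. For F0_5251KD vs F0_3NC, limma gave 2 (pseudocount 1) and 0 (pseudocount 0.1), and for the difference limma with pseudocount 1 gave 1. For F0_5251OV vs F0_5NC, no filter and a fit of only the groups compared each gave 3. Leaving out 1 library gave 0 to 4 genes in F0_5251KD vs F0_3NC (1 without F0_5251KD replicate 1 and 0 without its replicate 3 or without replicate 1 or 3 of F0_3NC), 0 to 1 in F0_5251OV vs F0_5NC (1 without F0_5NC replicate 2 or 3), 30 to 54 between the controls (35 without F0_3NC replicate 2, 30 without F0_5NC replicate 3) and 0 to 1 for the difference (1 without F0_5NC replicate 3).

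Leaving out both F0_3NC replicate 2 and F0_5251OV replicate 1, chosen after seeing the data, gave 0 genes in F0_5251KD vs F0_3NC and 26 between the controls. The cause of these moves was not tested. An offset for transcript length, also chosen after seeing the data, moved the log2 fold change of Bad from 0.085 to 0.075 in F0_5251KD vs F0_3NC, from -0.19 to -0.21 in F0_5251OV vs F0_5NC and from -0.18 to -0.16 between the controls, where it was -0.01 without F0_3NC replicate 2.

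Equal replicate numbers did not pair the libraries, since their deviations correlated by -0.242 to 0.161 (median -0.011). With the replicate block, 2 genes were called in F0_5251KD vs F0_3NC, and no call on a member changed. Depth limits Bcl2 and Bbc3 most, with 8 to 41 counts a library.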
